A study of Mus musculus with 9 samples.

Results

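Glutathione S-transferases are detoxifying enzymes, and 10 of their genes (Gsta2, Gsta4, Gstm1, Gstm2, Gstm5, Gstm6, Gstp1, Gstt1, Gsto1 and Gstk1) were followed in spermatogonia of mice kept on a vitamin A-deficient diet. Every probe set to which the platform annotation gives one of these symbols alone was taken, which gave 14 of the 45101 probe sets on the array. One further probe set that names Gsta2 together with other genes was left out. The 9 arrays hold cells of adult Balb/C mice in 3 groups of 3: a control group on normal diet, and mice on the vitamin A-deficient (VAD) diet for 18 weeks or 25 weeks. Each preparation pooled the testes of 2 mice. Cells were plated overnight and then sedimented through an albumin gradient (the STAPUT method), with a stated purity above 90%, and 100 ng of total RNA went through 2 cycles of amplification. The age of the controls and whether replicate preparations came from separate mice are not given in the labels, so p-values measure the spread between these preparations, which may be technical in part.

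Glutathione S-transferases join the tripeptide glutathione to reactive, electrophilic compounds so that these can be exported. The cytosolic enzymes fall into classes (alpha, mu, pi, theta, omega) that act as dimers, whereas the kappa enzyme is found in mitochondria and peroxisomes and has a separate fold. In the testis they are known for handling lipid peroxidation products and foreign compounds, and somatic Sertoli cells as well as germ cells make them. Many of their genes are targets of the transcription factor Nrf2, which binds antioxidant response elements. Vitamin A acts through retinoic acid and its nuclear receptors and is required for spermatogonia to differentiate.

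The arrays were not alike before any comparison of diets. Control replicate 3 and VAD 25-week replicate 3 were dim, with trimmed means of the deposited signals of 23 and 23.3 against 55.6 to 186 on the other 7 arrays. Over all kept probe sets these dim arrays correlated with each other (r = 0.889) better than with any other array (0.776 to 0.809). VAD 25-week replicates 1 and 2 carried far more signal from the poly-A spike controls (226 and 274) than the other 7 arrays (4.92 to 8.72), and this and the time on diet cannot be told apart for these arrays. Values below are quantile-normalised log2 signals after adding 3.259 to each signal. Differences come from limma with group and the dim pair as terms, given with their standard error, and a call means a Benjamini-Hochberg adjusted p below 0.05 over 27022 probe sets. A fold on this scale understates the change of a weak probe set.

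Of the 9 tested genes 1 passed. Gstk1, the kappa enzyme, rose 3.23-fold at 25 weeks, and its 18-week difference was of like size without passing. The representative probe sets of the mu-class genes Gstm1 and Gstm2 stood about 1 log2 unit above control in both diet groups, and neither passed. Outside the dim pair their 25-week differences were 0.25 and 0.50. The Gstm1 probe sets 1425626_at and 1425627_x_at differed by only 0.23 and -0.38 at 25 weeks. The strong mu-class probe set of Gstm5 and those of Gsta2, Gsta4, Gstp1, Gstt1 and Gsto1 did not pass at either time. A probe set was tested where its mean reached the 40th percentile, which kept 12 of the 14 probe sets and 9 of the 10 genes. Gstm6 and the second Gsto1 probe set fell below. Gstk1 lay above only 11.8%, 28% and 28% of probe sets on the control arrays, and above 43.9% to 71.2% on the diet arrays. Its mean thus reached the filter through the diet groups. In a fit without the filter the 25-week difference of Gstk1 had a limma adjusted p of 0.0242.

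Gstk1 is measured by a single, weak probe set. Its normalised log2 signal was 2.17, 2.93 and 2.93 in control replicates 1, 2 and 3. It was 3.64, 4.31 and 4.21 after 18 weeks of deficiency, and 3.76, 4.07 and 5.28 after 25 weeks. All 6 arrays of deficient mice thus lay above all 3 controls. The group means were 2.68 ± 0.44 (SD, n = 3) in control, 4.05 ± 0.36 (SD, n = 3) at 18 weeks and 4.37 ± 0.81 (SD, n = 3) at 25 weeks. On the deposited scale the controls were at 0.745, 3.14 and 2.66, each below the 3.259 added before taking logs, so the fold depends on that constant. With 32 added instead, the 25-week difference was 0.54 and the 18-week difference 0.50.

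At 25 weeks Gstk1 was higher by 1.69 ± 0.38 (95% interval 0.86 to 2.53; limma adjusted p = 0.0137), in 3 of 3 arrays above every control. The difference was 2.36 within the dim pair and 1.36 between the other arrays. The call rests on the dim-pair term: with group alone the adjusted p was 0.204, and leaving both dim arrays out gave 1.43 ± 0.47 and 0.0609. It was also lost without VAD 25-week replicate 2 (1.66, adjusted p = 0.0537) or replicate 3 (1.39, adjusted p = 0.0695). At 18 weeks the difference was 1.67 ± 0.40 (95% interval 0.79 to 2.55; limma adjusted p = 0.0667), which does not pass. The direct contrast of 25 with 18 weeks was 0.02 ± 0.40 (95% interval -0.86 to 0.91).

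**Figure D1:**
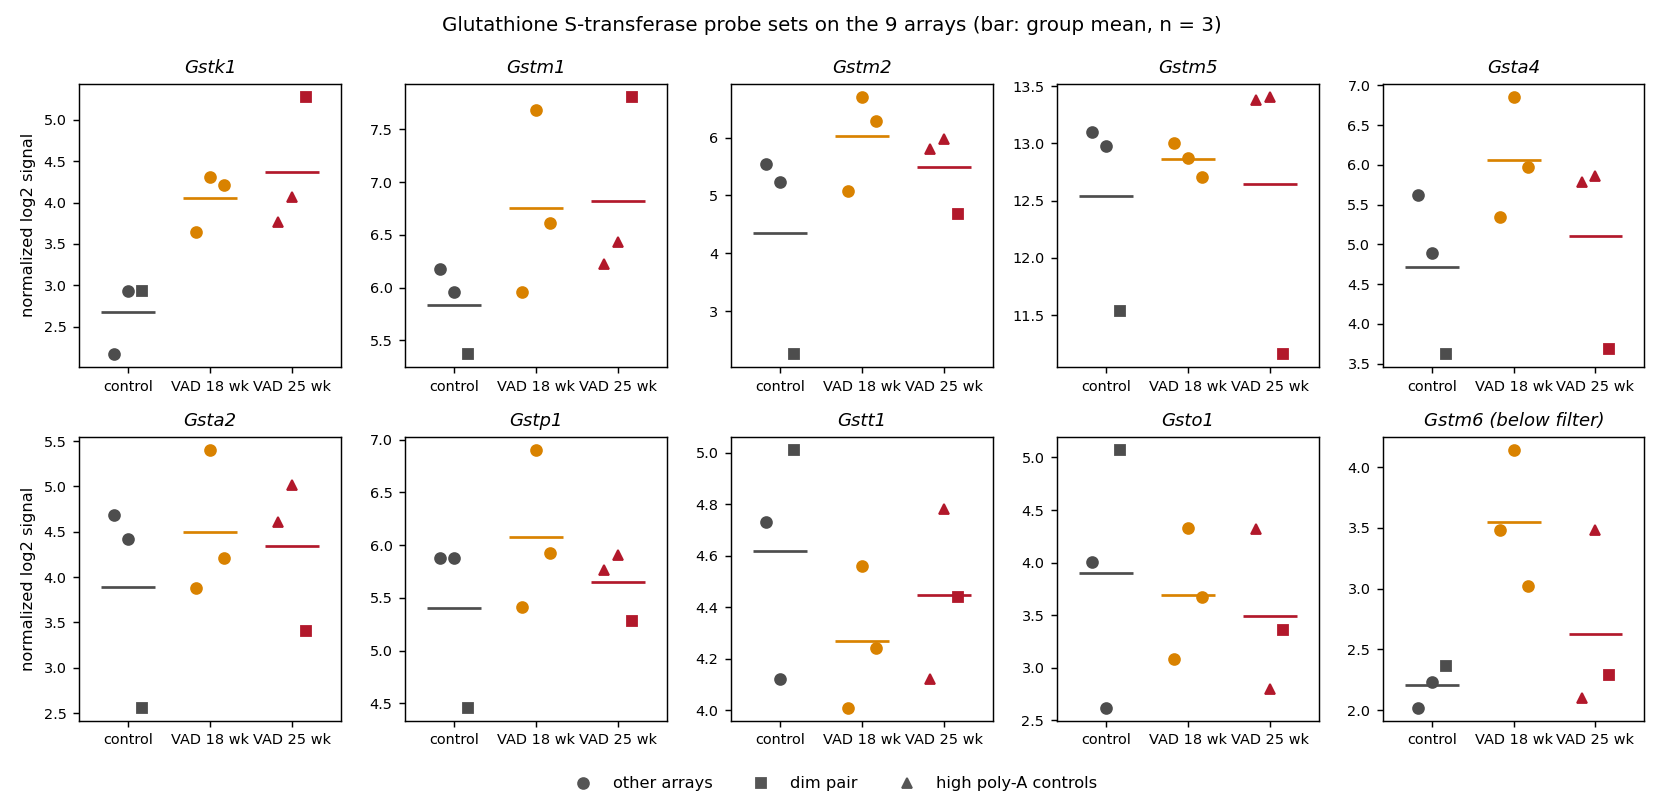
Normalised log2 signal of the representative probe set of each of the 10 genes (vertical axes, scaled separately per panel) on the 3 control, 3 VAD 18-week and 3 VAD 25-week arrays, with a bar at each group mean and the dim arrays marked. The Gstk1 points of both diet groups (3.64 to 5.28) lie above the controls (2.17 to 2.93), while the groups overlap or nearly touch for the other tested genes.

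The 250 bases before a transcript start are shown for Gstk1, the gene that passed, and for the mu-class genes whose probe sets behaved unalike (RefSeq, build GRCm38.p6, read 5′ to 3′ on the strand of the gene). The table used matched 9 of the 10 genes; Gsta4 was not listed. The motifs searched, on both strands, were the antioxidant response element core TGACNNNGC and the nuclear receptor half-site AGGTCA, whose reverse complement shares the letters TGAC with the first. Capitals mark matches. The windows are chr6:42245685-42245934 (+) for Gstk1, chr3:107895604-107895853 (+) for Gstm5, chr3:107986421-107986670 (-) for Gstm2 and chr3:108017974-108018223 (-) for the first of the listed Gstm1 starts.
Gstk1: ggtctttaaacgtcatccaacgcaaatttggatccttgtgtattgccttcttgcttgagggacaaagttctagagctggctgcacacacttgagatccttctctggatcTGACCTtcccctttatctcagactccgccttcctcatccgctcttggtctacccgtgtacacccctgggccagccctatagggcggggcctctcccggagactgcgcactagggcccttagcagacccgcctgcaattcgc
Gstm5: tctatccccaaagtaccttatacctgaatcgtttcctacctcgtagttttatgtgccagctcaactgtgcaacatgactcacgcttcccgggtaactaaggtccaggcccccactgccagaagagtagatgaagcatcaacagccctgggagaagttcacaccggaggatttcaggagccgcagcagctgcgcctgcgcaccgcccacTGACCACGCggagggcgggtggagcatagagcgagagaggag
Gstm2: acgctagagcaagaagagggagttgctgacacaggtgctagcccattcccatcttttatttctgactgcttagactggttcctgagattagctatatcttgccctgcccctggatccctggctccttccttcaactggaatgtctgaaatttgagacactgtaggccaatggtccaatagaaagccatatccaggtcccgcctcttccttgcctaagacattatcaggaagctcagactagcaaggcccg
Gstm1: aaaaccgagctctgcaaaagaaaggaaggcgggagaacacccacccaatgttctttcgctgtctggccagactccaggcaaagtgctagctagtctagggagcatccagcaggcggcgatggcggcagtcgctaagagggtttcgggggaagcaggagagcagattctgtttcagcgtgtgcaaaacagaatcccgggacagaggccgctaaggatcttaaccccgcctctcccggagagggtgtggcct
The Gstk1 window holds 1 half-site, read as TGACCT on the strand shown, and no antioxidant core. The Gstm5 window holds 1 antioxidant core, TGACCACGC, and no half-site. Neither motif occurs in the Gstm2 or Gstm1 windows, nor in those of the other 5 matched genes. Of all 32851 promoter windows of this length, 10.2% held the antioxidant core and 14% the half-site. The 9 matched genes have 12 windows, so a match of each motif in 1 of 12 windows is near that background. These letters say nothing of binding. The mu genes lie together on chromosome 3, in the order Gstm5, Gstm7, Gstm6, Gstm3, Gstm2, Gstm1 and Gstm4.

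Gstm2 is a mu-class enzyme that conjugates small electrophiles. Its probe set read 5.54, 5.24 and 2.26 in control replicates 1 to 3, 5.08, 6.71 and 6.29 at 18 weeks, and 5.81, 5.97 and 4.68 at 25 weeks. The dim control was far below every other array, and the groups overlapped. The 25-week difference of 1.14 ± 0.44 (95% interval 0.17 to 2.11) had a limma adjusted p of 0.108. It was 2.42 within the dim pair and 0.50 between the other arrays. At 18 weeks it was 0.96 ± 0.47 (95% interval -0.07 to 1.99; limma adjusted p = 0.337).

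Gstm1, the closest neighbour of Gstm2 in the cluster, has 4 probe sets, and these fell into pairs by their values on the dim arrays. The representative one (1448330_at) read 6.18, 5.96 and 5.37 in the controls, 5.96, 7.68 and 6.61 at 18 weeks, and 6.22, 6.43 and 7.81 at 25 weeks. At 25 weeks the lowest array (6.22) was just above the highest control (6.18), and at 18 weeks the groups overlapped. The differences were 1.04 ± 0.48 (95% interval -0.01 to 2.09; limma adjusted p = 0.308) at 18 weeks and 0.98 ± 0.45 (95% interval -0.01 to 1.97; limma adjusted p = 0.171) at 25 weeks. Most of the latter came from the dim pair (2.44), against 0.25 between the other arrays. The probe set 1416416_x_at, whose name marks possible cross-hybridisation, gave a like picture at 25 weeks, with 0.75 ± 0.46 (limma adjusted p = 0.297), 2.31 within the dim pair and -0.04 between the other arrays.

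The other pair of Gstm1 probe sets did not follow on the dim arrays. 1425626_at read 4.65, 4.41 and 2.12 in control, 3.57, 5.23 and 4.67 at 18 weeks, and 4.84, 4.72 and 2.30 at 25 weeks. Both dim arrays were low here, so the difference within them was only 0.19, and the 25-week difference was 0.23 ± 0.40 (limma adjusted p = 0.739). 1425627_x_at was likewise low on both dim arrays (2.41 and 2.24) and differed by -0.38 ± 0.31 at 25 weeks (limma adjusted p = 0.445). At 18 weeks these probe sets differed by -0.05 and 0.02. The annotation assigns the pairs to different source transcripts. Mu-class genes are close in sequence, so each of these values is uncertain as to the gene it measures.

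**Figure D2:**
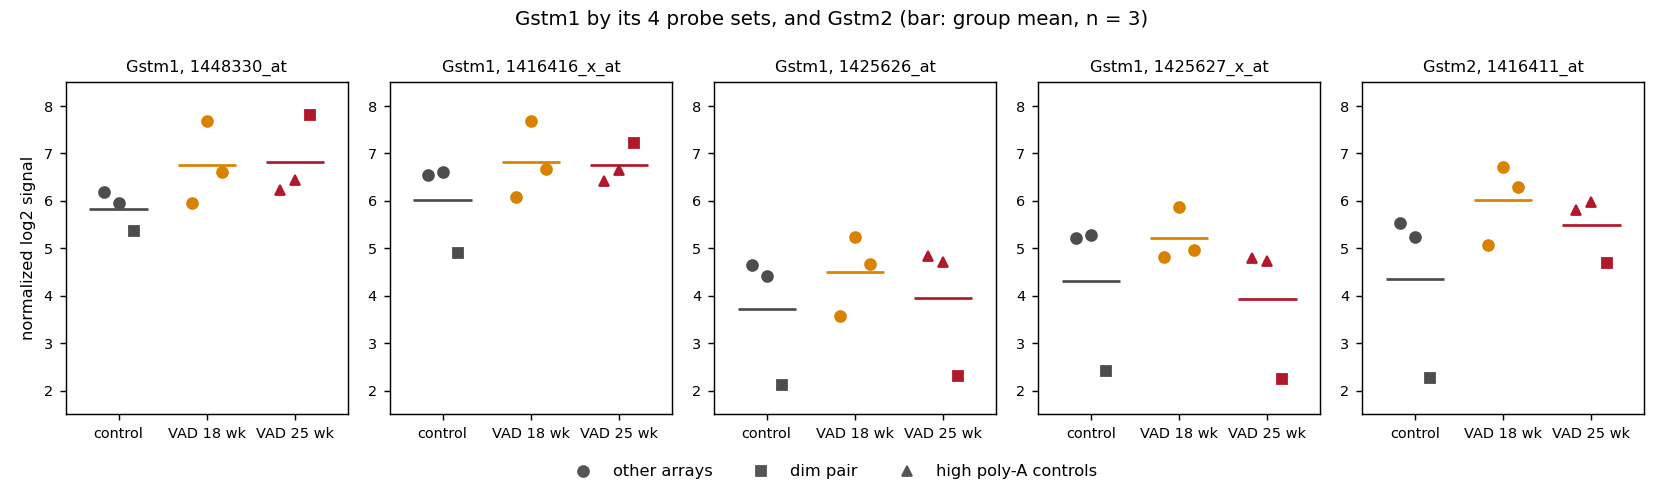
Normalised log2 signal (vertical axis) of the 4 Gstm1 probe sets and of Gstm2 on the 9 arrays, by group, with a bar at each group mean (n = 3). In 1448330_at and 1416416_x_at the dim VAD 25-week array is the highest of its group (7.81 and 7.22), whereas in 1425626_at and 1425627_x_at it is the lowest (2.30 and 2.24).

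Gstm5 differs in tissue distribution from most mu enzymes and is known for expression in testis and brain. It gave 13.10, 12.98 and 11.54 in control replicates 1 to 3, 13.00, 12.87 and 12.71 at 18 weeks, and 13.38, 13.41 and 11.16 at 25 weeks. The deposited signals were 8370, 8200 and 1180 in control, 9260, 6590 and 7500 at 18 weeks, and 14200, 13900 and 830 at 25 weeks. Both dim arrays were the lowest of all 9, and outside them the whole range was 12.71 to 13.41. The 18-week difference was -0.30 ± 0.15 (95% interval -0.62 to 0.02; limma adjusted p = 0.329) and turned to 0.32 with group as the only term. The 25-week difference was 0.11 ± 0.14 (95% interval -0.19 to 0.41; limma adjusted p = 0.627). Its direction depends on the scaling and on the arrays, with -0.51 (limma adjusted p = 0.0241) under median centring, -0.38 within the dim pair and 0.36 between the other arrays.

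The Gstm6 probe set, a mu-class gene between Gstm5 and Gstm2, was near the bottom of the scale. It read 2.02, 2.23 and 2.36 in control, 3.48, 4.14 and 3.02 at 18 weeks, and 2.10, 3.48 and 2.29 at 25 weeks. The 18-week arrays all lay above the controls, and the 25-week arrays overlapped them. In a fit without the signal filter the 18-week difference was 1.30 ± 0.46 (95% interval 0.31 to 2.29) with a limma adjusted p of 0.249, and the 25-week difference was 0.42 ± 0.43 (limma adjusted p = 0.63). Its deposited control signals were 0.445 to 1.27, under the added constant.

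Among the alpha class, Gsta4 is the enzyme known for clearing 4-hydroxynonenal, an end product of lipid peroxidation. It read 5.62, 4.89 and 3.62 in control, 5.34, 6.86 and 5.97 at 18 weeks, and 5.79, 5.86 and 3.68 at 25 weeks. Outside the dim pair both diet groups averaged above control, by 0.80 at 18 weeks and 0.56 at 25 weeks, while the dim arrays differed by 0.05. The fitted differences were 0.71 ± 0.38 (limma adjusted p = 0.378) and 0.39 ± 0.36 (limma adjusted p = 0.495). Gsta2, an inducible alpha enzyme, read 4.68, 4.42 and 2.56 in control, 3.88, 5.40 and 4.21 at 18 weeks, and 4.61, 5.01 and 3.41 at 25 weeks. Its groups overlapped fully, with differences of 0.04 ± 0.42 (limma adjusted p = 0.977) and 0.46 ± 0.39 (limma adjusted p = 0.466).

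Gstp1, the pi enzyme, which also binds stress kinases, read 5.88, 5.88 and 4.46 in control, 5.41, 6.90 and 5.93 at 18 weeks, and 5.76, 5.91 and 5.28 at 25 weeks. Apart from the dim control and VAD 18-week replicate 2, its arrays lay between 5.28 and 5.93. The differences were 0.34 ± 0.36 (limma adjusted p = 0.673) and 0.24 ± 0.34 (limma adjusted p = 0.67), the latter -0.05 without the dim arrays. Gstt1, the theta enzyme that acts on small halogenated compounds, read 4.73, 4.12 and 5.01 in control, 4.01, 4.56 and 4.24 at 18 weeks, and 4.12, 4.78 and 4.44 at 25 weeks. All its arrays lay between 4.01 and 5.01, and the differences were -0.25 ± 0.33 (limma adjusted p = 0.75) and -0.17 ± 0.31 (limma adjusted p = 0.751).

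Gsto1, the omega enzyme, reduces dehydroascorbate and arsenic compounds. Its brighter probe set scattered widely within groups, at 4.01, 2.62 and 5.07 in control, 3.08, 4.33 and 3.67 at 18 weeks, and 4.32, 2.80 and 3.36 at 25 weeks. The differences of 0.05 ± 0.61 and -0.41 ± 0.58 (limma adjusted p = 0.981 and 0.676) were smaller than their errors. The second probe set, below the filter, read 3.31, 3.25 and 1.78 in control, 2.59, 3.16 and 3.21 at 18 weeks, and 4.58, 4.31 and 2.02 at 25 weeks. In the fit without the filter it differed by 0.86 ± 0.37 at 25 weeks (limma adjusted p = 0.208), and neither probe set of Gsto1 passed. The fitted 25-week differences had opposite signs. Within the dim pair the brighter and the second probe set differed by -1.71 and 0.24. Between the other arrays both were higher at 25 weeks, by 0.25 and 1.16.

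**Figure D3:**
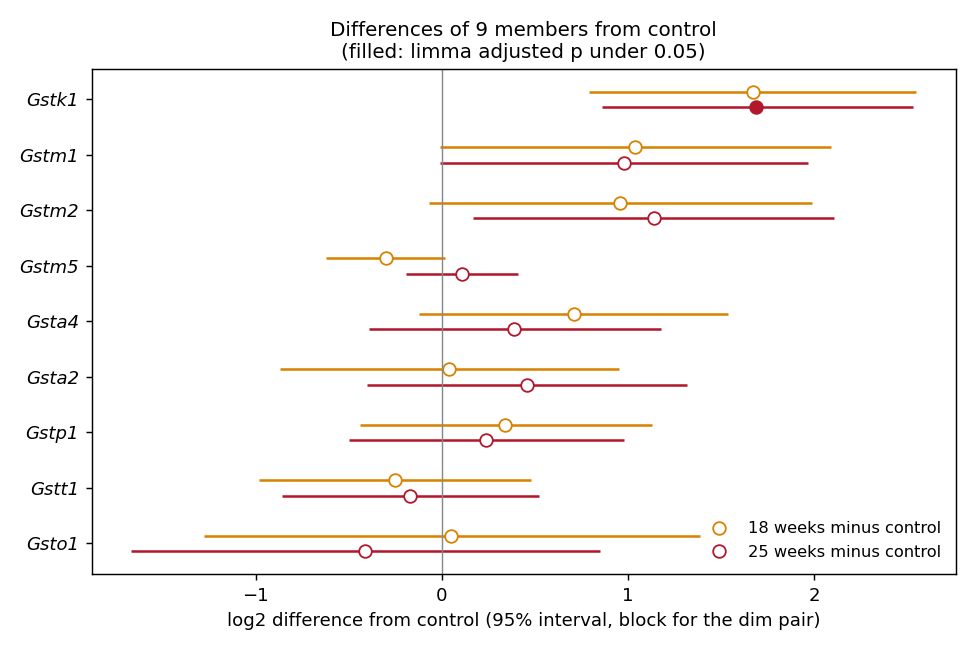
Log2 difference from control (horizontal axis, limma with the dim-pair term, bars 95% intervals) of the 9 tested genes at 18 and 25 weeks, filled where the adjusted p was below 0.05. Gstk1 at 25 weeks (1.69, interval 0.86 to 2.53) is the single filled point.

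At 18 weeks 0 of the 9 tested genes were called by limma, beside 1.36% of all 13616 tested genes called higher and 0.147% called lower. At an unadjusted p below 0.05 the count was 1 of 9 (Gstk1), beside 18% of all genes. At 25 weeks 1 of 9 was called, higher, beside 9.05% called higher and 7.95% called lower of all genes, so this share is near the background. At an unadjusted p below 0.05 the count was 2 of 9 (Gstm2 and Gstk1), beside 32.7%. Without the dim arrays 0 of 9 were called higher or lower at either time by limma, beside 3.47% (18 weeks) and 9.42% (25 weeks) of all genes called higher and 0.83% and 8.28% called lower. With group as the only term no probe set of any gene was called in either comparison by limma, and 7.23% (18 weeks) and 11.9% (25 weeks) of probe sets had an unadjusted p below 0.05.

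Of the 9 differences 7 were positive at each time, with a median of 0.34 at 18 weeks and 0.39 at 25 weeks. Over all tested genes 48.4% and 47.9% were positive, with medians of -0.02 and -0.03. The 18-week lean rests on VAD 18-week replicate 2: without it 4 of 9 were positive, with a median of -0.07. The comparisons share the control arrays, so the second lean is no separate evidence. All arrays of the diet group lay above all controls for 1 of 9 genes at 18 weeks (Gstk1; 11.8% of all genes) and for 2 of 9 at 25 weeks (Gstm1 and Gstk1; 9.58% of all genes).

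Between 25 and 18 weeks of deficiency 0 of the 9 genes were called by limma, as was none of the 13616 (0%), and 13% of all genes had an unadjusted p below 0.05. Gstm5 was the 1 member at that level, higher at 25 weeks by 0.41 ± 0.15 (limma adjusted p = 0.308). With group as the only term its difference turned to -0.21. Without the dim arrays this became 0.43 ± 0.09 (limma adjusted p = 0.0402), beside 0.573% of genes called higher and 1.29% called lower in that fit. The arrays behind it are VAD 25-week replicates 1 and 2, the ones with the high spike-in signal.

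Markers of other cells moved with the diet groups. Of all genes 1.36% at 18 weeks and 9.05% at 25 weeks were called higher. Of 17 kept Sertoli cell markers 8 were called higher at 18 weeks and 11 at 25 weeks, and none lower. Without the dim arrays, where 3.47% and 9.42% of all genes were called higher, 9 Sertoli markers were called at each time. They include the gap junction gene Gja1, up by 3.53 ± 0.43 and 3.61 ± 0.40 (limma adjusted p = 0.0052 and 0.000562), and the tight junction gene Cldn11, up by 2.80 ± 0.45 and 2.88 ± 0.42 (limma adjusted p = 0.0151 and 0.00206). The summed normalised signal of the list was 307 to 438 in control, 986 to 2950 at 18 weeks and 1200 to 2250 at 25 weeks. The markers Sox9 and Amh were below the filter, and Trf had no probe set of its own symbol alone. More cells of a type and more RNA per cell cannot be told apart in such bulk RNA. The part of Sertoli cell RNA in the Gstk1 difference was not tested.

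Within the 18-week group most of the transferases were highest on the same array. VAD 18-week replicate 2 was the highest of its 3 arrays for 9 of the 10 genes (8 of 10 on the deposited scale), Gstm5 being the exception on the normalised scale, beside 28.8% of all tested genes. The same array was the highest for 17 of 17 kept Sertoli markers, with a summed signal of 2950 against 986 and 1490. This was not particular to the Sertoli list. The array also had the highest macrophage (221 against 152 and 187), peritubular myoid (352 against 114 and 154) and endothelial (71.4 against 58.5 and 55.3) sums. Its spermatid sum was the highest too (11400 against 6970 and 11000), but its Leydig, spermatogonial, spermatocyte and erythroid sums were not. Without that array the 18-week differences were 1.54 for Gstk1, 0.61 for Gstm2 and 0.58 for Gstm1, that of Gsta4 was 0.31, and those of Gsta2 (-0.40), Gsto1 (-0.26) and Gstp1 (-0.07) turned negative. In the 25-week group the dim replicate 3 had the highest Sertoli sum (2250 against 1200 and 1300) and the highest Gstk1 and Gstm1 values, but it was the lowest for Gsta2, Gsta4, Gstm2, Gstm5 and Gstp1. That array was chosen for this description after its values were seen, as was the 18-week one.

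The lists for other somatic cells held fewer calls at 18 weeks than the Sertoli list. Of all genes 1.36% and 9.05% were called higher at 18 and 25 weeks, and 0.147% and 7.95% lower. Of 7 kept macrophage markers 0 were called at 18 weeks and 5 higher at 25 weeks by limma (summed signal 137 to 273 in control, 152 to 221 and 267 to 425). Of 6 kept Leydig cell markers 0 were called at 18 weeks and 1 higher at 25 weeks (539 to 1810, 1660 to 2370 and 1010 to 1650), and Hsd3b6, Hsd17b3, Insl3 and Lhcgr were not among those kept. Of 4 kept peritubular myoid and 4 kept endothelial markers 0 were called at either time by limma. Without the dim arrays the myoid markers Myl9 (1.86, limma adjusted p = 0.0383) and Acta2 (1.71, limma adjusted p = 0.0295) were called higher at 25 weeks. In that fit the Leydig marker Hsd3b1 (2.06, limma adjusted p = 0.017) and the macrophage marker Mrc1 (1.59, limma adjusted p = 0.0287) were called higher at 18 weeks. Of 14 spermatogonial markers on the array 11 were kept, with 1 called higher at 18 weeks and 2 at 25 weeks. All 10 spermatocyte and all 10 spermatid markers were kept as well. The summed signal of the spermatogonial list was 2990 to 3370 in control, 3730 to 3930 at 18 weeks and 3440 to 4220 at 25 weeks. Both diet groups thus lay above every control for this list too. In the same order the sums were 22700 to 29700, 29200 to 30600 and 22100 to 28000 for spermatocytes. For spermatids they were 5600 to 14400, 6970 to 11400 and 3740 to 13300. Sums over different genes do not give cell shares. Passing the filter is no check of the cell type, and the stated purity was not tested. Of the spermatocyte markers 2 were called higher at 18 weeks (Piwil1 and Sycp3), and at 25 weeks 3 were called higher (with Sycp2) and 2 lower (Ccna1 and Hspa2). Of the spermatid markers 4 were called lower at 25 weeks, and 3 without the dim arrays.

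Counts for the rest of the glutathione system stand beside 1.51% (18 weeks) and 17% (25 weeks) of all genes called in either direction. Whether counts on such small lists differ from these shares was not tested. Of 15 kept other transferase genes 0 were called at 18 weeks and 1 at 25 weeks, lower, which was the theta enzyme Gstt4 (-0.84 ± 0.18, limma adjusted p = 0.0117; 0.0343 without the dim arrays). Without the dim arrays the omega enzyme Gsto2 was also called lower at 25 weeks (-0.51, limma adjusted p = 0.0198), against -0.39 ± 0.12 (limma adjusted p = 0.0562) with them. The medians of this list were 0.00 and -0.10. Of 18 kept genes of glutathione synthesis and turnover 0 were called at 18 weeks and 2 lower at 25 weeks. These were Oplah, which recycles 5-oxoproline (-0.78 ± 0.21, limma adjusted p = 0.0317; 0.0476 without the dim arrays), and Hagh, a glyoxalase (-0.52 ± 0.16, limma adjusted p = 0.0489; 0.244 without the dim arrays). Chac1, which cleaves glutathione, was called lower without the dim arrays at both times (-1.15 and -1.62, limma adjusted p = 0.0448 and 0.00587) but not with them (-0.76 and -0.92). Of 7 kept glutathione peroxidases and glutaredoxins 0 were called at either time, and Gpx1 differed by 1.3 ± 0.62 and 1.34 ± 0.59.

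The list of Nrf2 and its targets is set beside the same shares, 1.51% and 17% of all genes. Of 19 kept genes of this list, the regulators included, 0 were called at 18 weeks and 1 at 25 weeks, higher, with medians of 0.00 and -0.11. The one called was Ephx1, microsomal epoxide hydrolase (1.64 ± 0.37, limma adjusted p = 0.0144; 0.0542 without the dim arrays). Nfe2l2, which encodes Nrf2, differed by -0.16 ± 0.29 and -0.13 ± 0.27, and its inhibitor Keap1 by 0.06 ± 0.19 and 0.19 ± 0.18. Of 10 kept thioredoxin, peroxiredoxin and superoxide dismutase genes 1 was called at 25 weeks, Prdx2 (1.29 ± 0.35, limma adjusted p = 0.0308; 0.121 without the dim arrays). Of 7 kept genes that export conjugates or turn them into mercapturates 1 was called at 25 weeks, Nat8, which acetylates cysteine conjugates (2.02 ± 0.46, limma adjusted p = 0.0142; 0.0609 without the dim arrays). Without the dim arrays the transporters Abcg2 (1.0) and Abcc1 (1.05) were called higher and Abcc3 (-1.22) lower in that list.

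**Figure D4:**
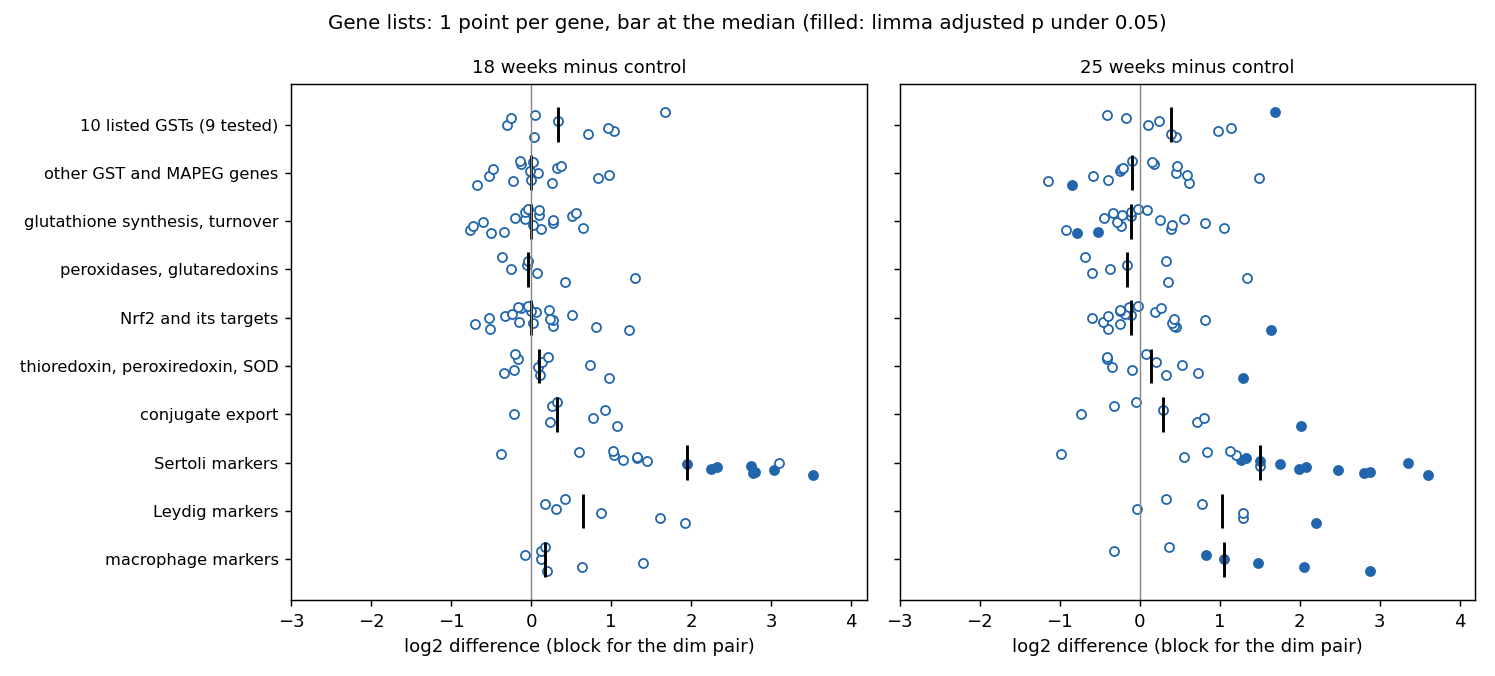
Log2 difference from control (horizontal axis, limma with the dim-pair term) of each kept gene, by time on diet, with a bar at each list's median. Shown are the transferases, the other glutathione and antioxidant lists, and the Sertoli, Leydig and macrophage markers. The Sertoli medians are 1.95 and 1.51, while those of the 9 transferases are 0.34 and 0.39 and those of the Nrf2 list 0.00 and -0.11.

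The genes whose pattern was most like that of Gstk1 were sought over the 7 arrays outside the dim pair. They were Lgmn, the lysosomal protease legumain (r = 0.986), Hmgn1, a nucleosome-binding protein (r = 0.985), and Ccdc61 (r = 0.985). Over all 9 arrays these correlations were 0.582, 0.685 and 0.632. They are the top of 13616 genes compared on 7 arrays that share the group differences, and are a description only.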

How the data were processed

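RNA of spermatogonia was hybridised to 9 Affymetrix arrays, 3 for each of control, VAD 18 weeks and VAD 25 weeks. Per the submitters' processing notes the authors summarised each probe set with MAS5, so the deposited values are linear intensity; its version and scaling target were not stated. The 64 control probe sets were left out. Signals plus 3.259 (their 25th percentile) were converted to log2 and quantile-normalised, and the 27022 probe sets whose mean reached the 40th percentile went into the fit. Differences were fitted with limma 3.58.1 in R 4.3.3 (eBayes with trend, all 9 arrays), with group and a term for the pair of dim arrays (trimmed mean below 0.5 of the median over arrays), and adjusted by Benjamini-Hochberg. The number of arrays, 3 per group, limits the precision. Alternatives covered the dim-pair term, the arrays left out, array weights, the scaling, the added constant and the filter. The procedure was tested on simulated data.

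The members, the gene lists and the dim-pair term were chosen with earlier results of these data known. Where a gene has several tested probe sets, the brightest stands for it, and _x_at or _s_at sets only in the absence of others. Of 45101 probe sets 34958 have a single gene symbol in the platform annotation, 932 several and 9211 none. All 10 members are named; of each other list, up to 4 genes with the smallest p; of a called member, the 3 genes most correlated with it. Outside that rule, Sox9, Amh, Trf, Hsd3b6, Hsd17b3, Insl3 and Lhcgr are named as markers that were not kept, Hspa2 as one of few called, and Nfe2l2 and Keap1 as regulators.

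Replicate numbers were checked for pairing. Deviations of same-numbered control and VAD 25-week arrays correlated at 0.519 to 0.69, but those with VAD 18-week arrays only at -0.00469 to 0.0749. Differently numbered control and VAD 25-week arrays outside the dim pair gave like values, 0.54 and 0.529. A dim array of either group with the brighter arrays of the other gave -0.631 to -0.575. The dim arrays share a replicate number, so for these groups the check cannot tell pairing by number from dimness. Whether the numbers pair control with VAD 25-week samples thus stays undecided.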

Additional observations from a re-analysis of the deposited data

How the results depend on the processing

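The call of Gstk1 at 25 weeks (1 gene called) depends on how the dim arrays are treated. The 25-week count was 0 with group as the only term, 0 without the dim arrays and 2 with array weights (Gstm5 and Gstk1). It was 3 with median centring (Gstm2 and Gstk1 higher, Gstm5 lower) and 6 on the deposited scaling (Gsta2, Gsta4, Gstm1, Gstm2, Gstp1 and Gstk1). A block of 3 array sets (dim, high poly-A and other) leaves the 25-week difference to the dim pair, 1 array against 1. Gstm1, Gstm2 and Gstk1 then differed by 2.44, 2.42 and 2.36. Leaving out the 2 arrays with high poly-A controls, chosen after seeing the data, keeps 1 VAD 25-week array, the dim one. These genes then differed by 2.37, 2.24 and 2.23. Neither fit has replicates for the 25-week difference, so no count is given for them. On the deposited scaling the median of all genes was itself 0.91 higher. Leaving out each replicate in turn gave 0 to 1, with 0 without VAD 25-week replicate 2 or 3. The 18-week count of 0 became 1 with array weights (Gstk1, 1.52, limma adjusted p = 0.0462), and was 0 to 0 when replicates were left out. The count between 25 and 18 weeks became 1 (Gstm5) without the dim arrays and 1 with array weights, and was 0 to 1 when replicates were left out, with 1 without control replicate 3 or VAD 25-week replicate 3.

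Signs changed for genes that were not called. At 18 weeks Gsta2 became -0.05 without the dim arrays, -0.06 with the 3 array sets and -0.05 without the high poly-A arrays; Gstm5 became 0.32 with group alone; Gsto1 became -0.21 with group alone and -0.03 with 32 added. At 25 weeks Gstm5 became -0.38 with the 3 array sets, -0.51 with median centring and -0.40 without the high poly-A arrays, and Gstp1 became -0.05 without the dim arrays. Gstt1 became 0.03 without the dim arrays, 0.04 with array weights and 0.83 on the deposited scaling, and Gsto1 became 0.27, 0.20 and 0.51. With replicates left out in turn the ranges were -0.40 to 0.35 (Gsta2), -0.07 to 0.67 (Gstp1) and -0.68 to 0.39 (Gsto1) at 18 weeks, and -0.05 to 0.36 (Gstp1), -0.41 to 0.03 (Gstt1) and -1.0 to 0.25 (Gsto1) at 25 weeks. The cause was not tested. A block for the replicate number, which the labels do not say pairs the samples, was added beside the dim-pair term. The counts were then 0, 1 and 0, Gstk1 at 25 weeks had a limma adjusted p of 0.029, and no member's call changed. That block was not fitted without the dim-pair term. Values for single genes under an alternative were counted for the comparisons with control. Of these, 333 kept direction and side of the threshold, 12 newly passed with the same sign, 4 no longer passed and 29 changed sign. Among those that changed sign, Gstm5 at 25 weeks under median centring (-0.51) also newly passed. The counts include the fits whose 25-week difference rests on the dim pair alone. Weak signals limit Gstk1, Gstm6 and the second Gsto1 probe set, whose control values lie near the added constant.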
